A study of Mus musculus with 6 samples.

Results

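The 8 genes described here, Mrc1, Mgl2, Clec10a, Cd209a, Retnla, Ccl17, Ccl22 and Tgm2, are widely used as markers of alternatively activated mouse macrophages. They were taken by symbol from 19938 genes with a probe set of their own, and each of the 8 was read by 1 probe set. RNA was measured on 6 arrays, from 2 macrophage subsets of each of 3 mice. All mice were of the strain B6.129P2-Lyzstm1(cre)Ifo/J, which carries Cre recombinase at the lysozyme locus, so both subsets share that allele and there was no group without it. The sources used here state neither the age nor the sex of the mice. Cardiotoxin, a snake toxin that destroys muscle fibres, had been injected into the tibialis anterior muscle 2 days before the cells were taken, and uninjured muscle was not analysed here. CD45-positive blood-lineage cells were gated as Ly6C+ F4/80low, the phenotype of newly arrived monocyte-derived cells, or as Ly6C- F4/80high, the phenotype of more mature macrophages, with 3 arrays each.

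Alternative activation is the response of macrophages to interleukin-4 and interleukin-13, which bind receptors containing the IL-4 receptor alpha chain and activate the transcription factor STAT6. The induced genes encode sugar-binding receptors, secreted proteins of the resistin family, chemokines for cells bearing the receptor CCR4, and the cross-linking enzyme transglutaminase 2. In injured muscle, inflammatory macrophages come first and macrophages with repair functions follow. The comparison asks whether these markers separate the subsets at this early time. Levels are log2 values, and each difference is the Ly6C- F4/80high mean minus that of Ly6C+ F4/80low, with its standard error (SE). Levels of different probe sets are not comparable with each other. A difference was called at a limma adjusted p under 0.05 over all genes. An array counted as above background where its value exceeded 5.48, the 95th percentile of olfactory and vomeronasal receptor genes. These genes were taken as mostly silent in the sorted cells, which was not tested. Within a subset the arrays correlated at 0.990 to 0.993 across probe sets, and between subsets at 0.979 to 0.982. Adgre1, the gene of the macrophage antigen used in the gate, was called higher by 0.73 (SE 0.07, limma adjusted p = 4.46e-05), and 2 probe sets that read Ly6c1 and Ly6c2 jointly, the genes of Ly6C, were 10.5-fold and 9.08-fold lower, as the gates select. Ptprc, the gene of CD45, which both subsets were selected for, was lower by 0.64 (SE 0.07, limma adjusted p = 0.000127).

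The markers did not move as a group. Cd209a was lower in the Ly6C- F4/80high cells, Clec10a was higher, and the other 6 were not called. Of the uncalled markers, Retnla was above background on 0 of the 6 arrays, Mgl2 on 1, Ccl22 on 2 and Ccl17 on 3. For these genes the absence of a call says little. Mrc1 and Tgm2 were above it on all 6. Among all genes 33.8% were called, 19.5% higher and 14.3% lower, and 1.91% and 1.02% were called with a difference of at least 2-fold. The lower count of 2861 genes was 1866 and 1790 without the mouse 1 or mouse 3 array of the Ly6C- F4/80high cells, and 1574 and 1321 without both arrays of these mice. With 1 of 8 higher and 1 of 8 lower, the marker counts were no larger than the shares of 19.5% and 14.3%. At the 2-fold limit 1 of the 8, Cd209a, was lower, beside 1.02% of all genes. The median difference of the 8 was 0.04, beside -0.06 over all genes. For 2 of the 8 markers, Cd209a and Clec10a, no array of one subset reached into the range of the other, as for 48.1% of all genes.

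**Figure D1:**
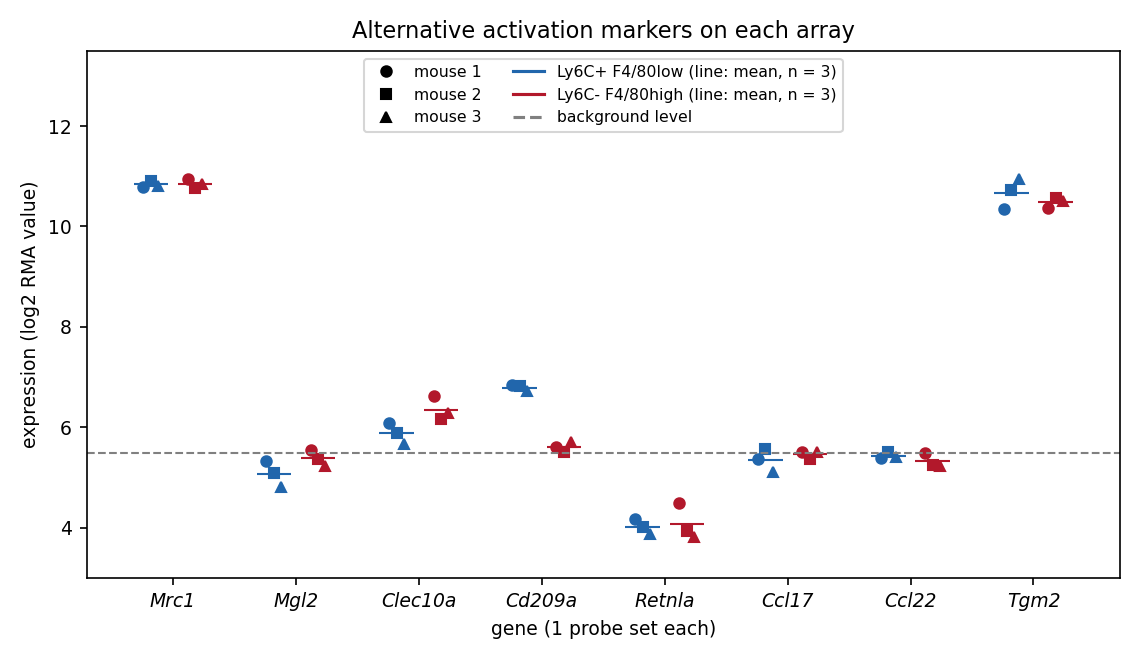
Log2 RMA level of each marker (x axis) on each of the 6 arrays (y axis), with Ly6C+ F4/80low arrays in blue, Ly6C- F4/80high arrays in red, symbols for the mice, lines for subset means of 3 arrays and a dashed line at the background level of 5.48. Mrc1 and Tgm2 lie far above the line in both subsets, Cd209a is higher on the blue arrays, and Mgl2, Retnla, Ccl17 and Ccl22 lie around or under the line.

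The 4 lectin receptors bind sugars on glycoproteins and take up the bound material. Mrc1 encodes the mannose receptor, which clears mannose-bearing and sulphated glycoproteins. Its level was 10.95, 10.77 and 10.84 in the Ly6C- F4/80high arrays of mice 1, 2 and 3, and 10.79, 10.91 and 10.81 in the Ly6C+ F4/80low arrays. All 6 arrays were far above background and the subsets overlapped almost completely. The difference was 0.02 (SE 0.08, limma adjusted p = 0.893), with a 95% interval from -0.16 to 0.19, so these arrays leave room for a ratio between 0.894 and 1.14. Its sign differed between mice, at 0.16, -0.14 and 0.03, and depended on the setting, for instance -0.03 after cyclic loess normalization.

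Cd209a encodes a mouse relative of the human lectin DC-SIGN and is also known from monocyte-derived dendritic cells. Its level was 5.60, 5.50 and 5.70 in the Ly6C- F4/80high arrays of mice 1, 2 and 3, and 6.84, 6.82 and 6.72 in the Ly6C+ F4/80low arrays. Every Ly6C+ F4/80low array was above every Ly6C- F4/80high array. The subset means were 5.60 ± 0.10 (SD, n = 3) and 6.79 ± 0.06 (SD, n = 3), a difference of -1.19 (SE 0.08, limma adjusted p = 4.81e-06), or 2.28-fold lower. Each mouse showed it, at -1.24, -1.31 and -1.02. Only 138 of the 19938 genes, 0.692%, had a more negative difference. The Ly6C- F4/80high arrays were close to the background, and against a stricter background of 6.23, the 99th percentile of the receptor genes, the difference is a bound of at least 1.48-fold. In sorted populations, fewer cells carrying a transcript and less of it per cell cannot be told apart.

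Markers of other cell types were read beside Cd209a. Among 10 dendritic cell markers the Ly6C- F4/80high cells had 3 lower, 2 higher and 5 with no call, beside 14.3% lower and 19.5% higher of all genes. The higher count is thus close to the share of all genes. The summed log2 level of the list was 58.99 to 60.02 in the Ly6C- F4/80high cells and 61.08 to 61.61 in the Ly6C+ F4/80low cells. Flt3, a growth factor receptor of dendritic cells, and Siglech, of plasmacytoid dendritic cells, were not above background on any Ly6C- F4/80high array and at least 1.32-fold and 1.39-fold lower there. Ccr7, the receptor for migration to lymph nodes, differed by -0.38 (limma adjusted p = 0.0153), and its call was lost without the mouse 3 array of the Ly6C- F4/80high cells (adjusted p = 0.0517), the Ly6C+ F4/80low array of mouse 2 (adjusted p = 0.0508), mouse 2 (adjusted p = 0.104) or mouse 3 (adjusted p = 0.0991). Of the other markers, Itgae, Xcr1, Clec9a and Ly75 were under background on all 6 arrays, while Zbtb46, a transcription factor of conventional dendritic cells, was above it on 2 Ly6C- F4/80high and 3 Ly6C+ F4/80low arrays. Zbtb46 averaged 5.54 and 5.80 and was not called (limma adjusted p = 0.0879), but passed the threshold when mouse 2 (adjusted p = 0.0341) or its Ly6C- F4/80high array (adjusted p = 0.0316) was left out. The higher ones were Cd24a, at 0.43 (limma adjusted p = 0.00975), and Itgax, at 0.37 (limma adjusted p = 0.0188). Itgax, which encodes CD11c, was no longer called when either array of mouse 1 was left out (adjusted p = 0.0588 and 0.0522), both of them (adjusted p = 0.124) or mouse 3 (adjusted p = 0.0657), and its difference was 0.19 after quantile normalization (adjusted p = 0.184) and 0.22 after cyclic loess (adjusted p = 0.116).

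Markers of several further cell types were lower together with Cd209a. Of all genes 14.3% were called lower. All 5 fibroblast markers were lower, with a summed log2 level of 28.00 to 28.68 against 30.31 to 32.36 in the Ly6C+ F4/80low cells. Of these, Pdgfra was above background on 2 Ly6C+ F4/80low arrays only, and the subsets overlapped for Col3a1. Dcn stood at 6.79, 5.70 and 5.55 in the Ly6C+ F4/80low arrays of mice 1, 2 and 3, so its difference rests largely on mouse 1. Of 4 endothelial markers 3 were lower, at 22.88 to 23.18 against 25.65 to 25.98. Tek, among these 3, was under background on all 6 arrays. Neutrophil markers gave 3 lower (33.3%), 0 higher and 6 uncalled of 9, with a summed log2 level of 47.53 to 49.12 against 50.37 to 50.79. Of the 9, 5 were under background on all arrays, which limits what this sum shows. The lower ones were S100a9, a calcium-binding protein gene that was not above background on any Ly6C- F4/80high array and at least 1.23-fold lower there, and Ly6g and the chemokine receptor gene Cxcr2, both under background on all arrays. Of 8 macrophage markers all were above background on all 6 arrays, with 3 called higher and 3 lower (37.5% each).

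Of 5 measured eosinophil markers Ccr3, Epx, Prg2 and Il5ra were under background on all arrays. The fifth, Siglecf, was above it on all 6 and lower by 0.38 (SE 0.11, limma adjusted p = 0.0252). Its call was lost with the mouse as a block (adjusted p = 0.0553), when mouse 1 or mouse 3 lost its Ly6C- F4/80high array (adjusted p = 0.0625 and 0.0978) or its Ly6C+ F4/80low array (adjusted p = 0.0783 and 0.0874), and without either mouse (adjusted p = 0.145 and 0.236). The summed log2 level of this list was 23.63 to 24.75 in the Ly6C- F4/80high cells and 24.23 to 25.13 in the others. The sums of this list and of the next add mostly values under background, so they give no order of the subsets. Of 7 basophil and mast cell markers, with sums of 27.08 to 28.60 and 28.86 to 29.38, 6 were under background on all arrays. Among these 6, Kit, a growth factor receptor gene, was lower by 0.36 (SE 0.10, limma adjusted p = 0.0214), a call lost after cyclic loess (adjusted p = 0.0901) or quantile normalization (adjusted p = 0.0693), without the mouse 1 or mouse 3 array of the Ly6C- F4/80high cells (adjusted p = 0.0756 and 0.0518), the mouse 2 array of the Ly6C+ F4/80low cells (adjusted p = 0.0678), or all of mouse 1 or mouse 3 (adjusted p = 0.123 and 0.0776). The seventh, the tryptase gene Tpsb2, was above it on 2 Ly6C- F4/80high and 3 Ly6C+ F4/80low arrays and was not called (limma adjusted p = 0.0553). Tpsb2 passed without the mouse 2 array of the Ly6C- F4/80high cells (adjusted p = 0.0293), without the 25% of genes of lowest level (adjusted p = 0.0363) and with array weights (adjusted p = 0.0386). The T cell, NK cell and innate lymphoid list had 1 higher (Il7r) and 1 lower (Cd3e) of 10. The B cell list had 1 higher (Cd79b) of 4 measured, and the muscle list 1 lower (Pax7) of 6. Beside these small counts stand 19.5% higher and 14.3% lower of all genes, so they set none of these lists apart. Il7r was not called without mouse 2 (adjusted p = 0.0642), nor Pax7 without mouse 3 (adjusted p = 0.0718). Markers named in these lists besides the dendritic ones were chosen after their values were seen. The part of any of these cells in the Cd209a difference was not tested.

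The other Cd209 genes are close relatives of Cd209a, so probes could read more than 1 of them. Cd209b, Cd209c, Cd209d, Cd209e, Cd209f and Cd209g were under background on all 6 arrays. Cd209d was nevertheless lower by 0.53 (SE 0.11, limma adjusted p = 0.00566), a call kept in all 17 alternative settings that held it. Cd209b was lower by 0.27 (SE 0.09, limma adjusted p = 0.0380), a call lost in 11 of 17 settings. In the other direction, Cd209f was higher by 0.56 (SE 0.13, limma adjusted p = 0.00732). Cd209c and Cd209g were not called. Shared reading by probes was not tested. The direct neighbours of Cd209a are Clec4g, a lectin gene of liver and lymph node endothelium, which differed by -0.22 (SE 0.10, limma adjusted p = 0.100), and Cd209e, which was lower by 0.30 (SE 0.10, limma adjusted p = 0.0363). Both were under background on all arrays. The Cd209e call was lost with the mouse as a block (adjusted p = 0.0501), after cyclic loess (adjusted p = 0.213) or quantile normalization (adjusted p = 0.191), when any Ly6C- F4/80high array was dropped (adjusted p = 0.0541, 0.0758 and 0.109 for mice 1, 2 and 3), when mouse 1 or mouse 3 lost its Ly6C+ F4/80low array (adjusted p = 0.0775 and 0.122), and without either mouse (adjusted p = 0.102 and 0.266).

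The genes most like Cd209a in pattern over the 6 arrays were Heg1, Gsr and Pilra. Likeness was the root mean square distance between log2 values centred on each gene's mean, which was 0.07 for Heg1, a membrane glycoprotein gene best known from endothelium, and 0.08 for both Gsr, which encodes glutathione reductase, and Pilra, an inhibitory receptor gene of myeloid cells. Their differences were -1.18, -1.19 and -1.31, and Heg1 was not above background on any Ly6C- F4/80high array and at least 2.09-fold lower there. Cd209a was the only marker whose range over the arrays reached 1, the minimum for this comparison.

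Clec10a and Mgl2 are neighbouring genes of 2 closely related galactose-type lectins, MGL1 and MGL2, which recognise galactose and N-acetylgalactosamine. Clec10a stood at 6.62, 6.16 and 6.28 in the Ly6C- F4/80high arrays of mice 1, 2 and 3, and at 6.08, 5.89 and 5.67 in the Ly6C+ F4/80low arrays. The subsets did not overlap, but the gap between the lowest and the highest of them was small beside the spread within each subset. The means were 6.35 ± 0.24 (SD, n = 3) and 5.88 ± 0.20 (SD, n = 3), a difference of 0.47 (SE 0.14, limma adjusted p = 0.0222), or 1.39-fold higher. Only 2 arrays, the Ly6C- F4/80high arrays of mice 1 and 3, exceeded the stricter background of 6.23. Against that background the fold could only be given as a bound, which was not calculated. The call did not survive leaving out the mouse 1 array of the Ly6C- F4/80high cells (0.34, adjusted p = 0.0771), the Ly6C+ F4/80low array of mouse 3 (0.37, adjusted p = 0.0805) or both arrays of mouse 3 (0.41, adjusted p = 0.123). It was also lost when the p was adjusted over all 35556 probe sets (adjusted p = 0.0775).

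Mgl2 stood at 5.54, 5.36 and 5.24 in the Ly6C- F4/80high arrays and at 5.32, 5.09 and 4.82 in the Ly6C+ F4/80low arrays. Just 1 array exceeded the background, so most of these values have no firm order. The difference was 0.31 (SE 0.13, limma adjusted p = 0.0939), positive in every mouse at 0.22, 0.28 and 0.42. With the mouse as a block, which compares the subsets within each animal, it was called (adjusted p = 0.0273), as it was after quantile normalization (0.40, adjusted p = 0.0370), after cyclic loess (0.43, adjusted p = 0.0303) and without the mouse 1 array of the Ly6C+ F4/80low cells (0.43, adjusted p = 0.0263). On both genes the highest array of each subset was that of mouse 1. Asgr2, the liver lectin gene on the other side of Mgl2, differed by -0.33 (SE 0.10, limma adjusted p = 0.0308), a call lost after quantile normalization (adjusted p = 0.0596), after cyclic loess (adjusted p = 0.0753) and when mouse 1 or mouse 3 lost its Ly6C- F4/80high array (adjusted p = 0.113 and 0.0899), its Ly6C+ F4/80low array (adjusted p = 0.0606 and 0.0988) or both (adjusted p = 0.163 and 0.209).

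**Figure D2:**
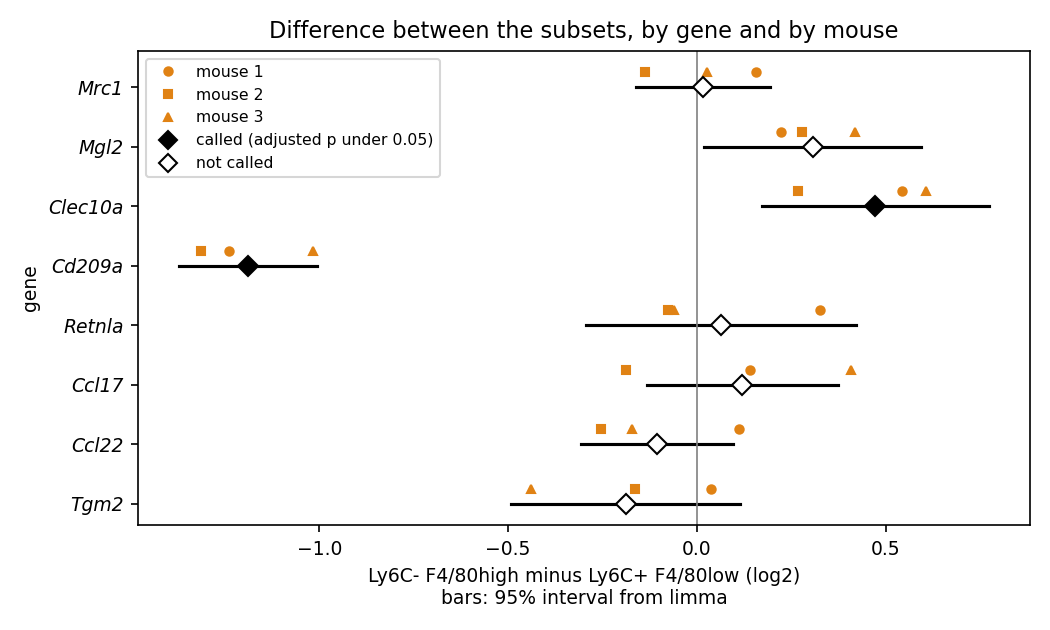
Difference between the subsets (x axis, log2) for each marker (y axis): diamonds are the limma estimates from 3 arrays per subset, filled where called, bars are 95% intervals, and orange symbols are the differences within each mouse. The interval of Cd209a lies between -1.37 and -1.01, that of Clec10a between 0.17 and 0.77, and those of Mrc1, Retnla, Ccl17, Ccl22 and Tgm2 include 0. That of Mgl2, which was not called, lies between 0.02 and 0.59, as the intervals are not adjusted over all genes.

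Retnla encodes the secreted protein RELM alpha, also called FIZZ1, which macrophages release in large amounts after interleukin-4. Its level was 4.50, 3.93 and 3.82 in the Ly6C- F4/80high arrays of mice 1, 2 and 3, and 4.17, 4.01 and 3.88 in the Ly6C+ F4/80low arrays. All 6 arrays were under background, so no order of the subsets can be read. The difference was 0.06 (SE 0.16, limma adjusted p = 0.778; 95% interval -0.29 to 0.42). The array of mouse 1 was highest in each subset, and without its Ly6C- F4/80high array the difference was -0.14 (adjusted p = 0.354). The adjacent family members Retnlb and Retnlg were under background on all arrays too, with differences of -0.13 and 0.16, neither called.

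Ccl17 and Ccl22 encode TARC and MDC, chemokines that draw T helper and regulatory T cells through CCR4. They lie in 1 cluster on either side of Cx3cl1. Ccl17 stood at 5.50, 5.37 and 5.51 in the Ly6C- F4/80high arrays and at 5.36, 5.56 and 5.10 in the Ly6C+ F4/80low arrays. The arrays lay on both sides of the background and the subsets overlapped, the difference being 0.12 (SE 0.11, limma adjusted p = 0.429; 95% interval -0.13 to 0.37). It was -0.0001 without the mouse 3 array of the Ly6C+ F4/80low cells.

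Ccl22 stood at 5.49, 5.26 and 5.23 in the Ly6C- F4/80high arrays and at 5.38, 5.51 and 5.40 in the Ly6C+ F4/80low arrays, again around the background and overlapping. The difference was -0.11 (SE 0.09, limma adjusted p = 0.385; 95% interval -0.31 to 0.10). Both chemokine differences changed sign between mice, at 0.14, -0.19 and 0.41 for Ccl17 and 0.11, -0.26 and -0.17 for Ccl22. Cx3cl1, the gene of fractalkine between them, differed by -0.23 (SE 0.10, limma adjusted p = 0.0937), and passed the threshold without mouse 2 (-0.32, adjusted p = 0.0410) or its Ly6C- F4/80high array alone (-0.33, adjusted p = 0.0166). Ccr4, the receptor gene, was under background on all 6 arrays, with a difference of -0.13.

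RefSeq promoter windows of GRCm38.p6, from 250 bases before to 50 after the gene start, matched 6 of the 8 markers, all but Clec10a and Tgm2. They are shown for Retnla and Ccl17, whose windows hold the palindrome bound by STAT6, and for Cd209a and Mrc1, the marker with the largest difference and one with a high and similar level in both subsets. Capitals mark matches, on either strand, of TTCNNNNGAA (the STAT6 palindrome), TTCNNNGAA (a palindrome of other STAT factors), GGAAGT (the core bound by the myeloid factor PU.1) and TATAAA (the TATA box).
Retnla (chr16:48842359-48842658, plus strand): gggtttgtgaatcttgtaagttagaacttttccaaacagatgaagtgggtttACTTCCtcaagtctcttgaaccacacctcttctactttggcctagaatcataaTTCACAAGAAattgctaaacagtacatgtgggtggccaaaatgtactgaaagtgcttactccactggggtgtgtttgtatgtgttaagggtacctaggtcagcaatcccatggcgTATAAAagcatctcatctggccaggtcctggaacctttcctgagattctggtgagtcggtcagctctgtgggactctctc
Ccl17 (chr8:94810203-94810502, plus strand): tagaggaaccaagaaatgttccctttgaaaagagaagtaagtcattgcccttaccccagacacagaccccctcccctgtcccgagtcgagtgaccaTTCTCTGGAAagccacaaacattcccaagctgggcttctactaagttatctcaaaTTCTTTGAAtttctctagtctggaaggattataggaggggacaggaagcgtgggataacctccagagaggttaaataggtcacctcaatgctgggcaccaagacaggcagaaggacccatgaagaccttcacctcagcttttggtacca
Cd209a (chr8:3748935-3749234, minus strand): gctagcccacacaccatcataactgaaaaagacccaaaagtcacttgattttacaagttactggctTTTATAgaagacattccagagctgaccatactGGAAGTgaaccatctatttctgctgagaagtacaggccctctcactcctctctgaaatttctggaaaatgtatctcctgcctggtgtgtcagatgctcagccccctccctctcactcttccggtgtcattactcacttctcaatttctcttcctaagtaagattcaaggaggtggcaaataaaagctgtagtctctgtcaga
Mrc1 (chr2:14229164-14229463, plus strand): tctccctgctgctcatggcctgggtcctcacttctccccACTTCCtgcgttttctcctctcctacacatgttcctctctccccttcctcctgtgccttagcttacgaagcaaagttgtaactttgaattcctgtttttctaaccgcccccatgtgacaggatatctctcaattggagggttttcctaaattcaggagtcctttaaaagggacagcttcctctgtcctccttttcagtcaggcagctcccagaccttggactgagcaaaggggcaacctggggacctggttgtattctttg

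The palindrome of STAT6 begins at base 106 of the Retnla window and base 97 of the Ccl17 window, counted from 1 at the 5′ end, and 6.95% of 32851 promoter windows hold it. Retnla was above background on 0 of the 6 arrays and Ccl17 on 3. Ccl17 also holds the other STAT palindrome, at base 152, as do 8.30% of all windows. The PU.1 core was found in 5 of the 6 windows, those of Mrc1, Mgl2, Cd209a, Ccl22 and Retnla, and in 23.8% of all windows. Retnla has a TATA box match at base 221 on the strand shown, near the gene start. The Cd209a match lies at base 67 on the other strand, farther from the start. Of all windows 13.6% hold a match. A match shows these letters only, and binding was not measured.

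Tgm2 encodes transglutaminase 2, which cross-links proteins and, on macrophages, helps in the uptake of dying cells. Its level was 10.38, 10.56 and 10.50 in the Ly6C- F4/80high arrays of mice 1, 2 and 3, and 10.34, 10.73 and 10.94 in the Ly6C+ F4/80low arrays. All arrays were far above background and the subsets overlapped, with a wider spread in the Ly6C+ F4/80low cells (SD 0.30 against 0.09). The difference was -0.19 (SE 0.14, limma adjusted p = 0.302), with a 95% interval from -0.49 to 0.11. It was 0.04, -0.16 and -0.44 in mice 1, 2 and 3. When its mouse 1 array of the Ly6C+ F4/80low cells was left out, it was -0.35 and called (adjusted p = 0.0295). Of its relatives, Tgm1, the keratinocyte transglutaminase, was lower by 0.86 (SE 0.11, limma adjusted p = 0.000207) and F13a1, the clotting factor XIII subunit that macrophages also make, was lower by 0.37 (SE 0.08, limma adjusted p = 0.00483), a call lost without mouse 3 (-0.32, adjusted p = 0.0692).

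**Figure D3:**
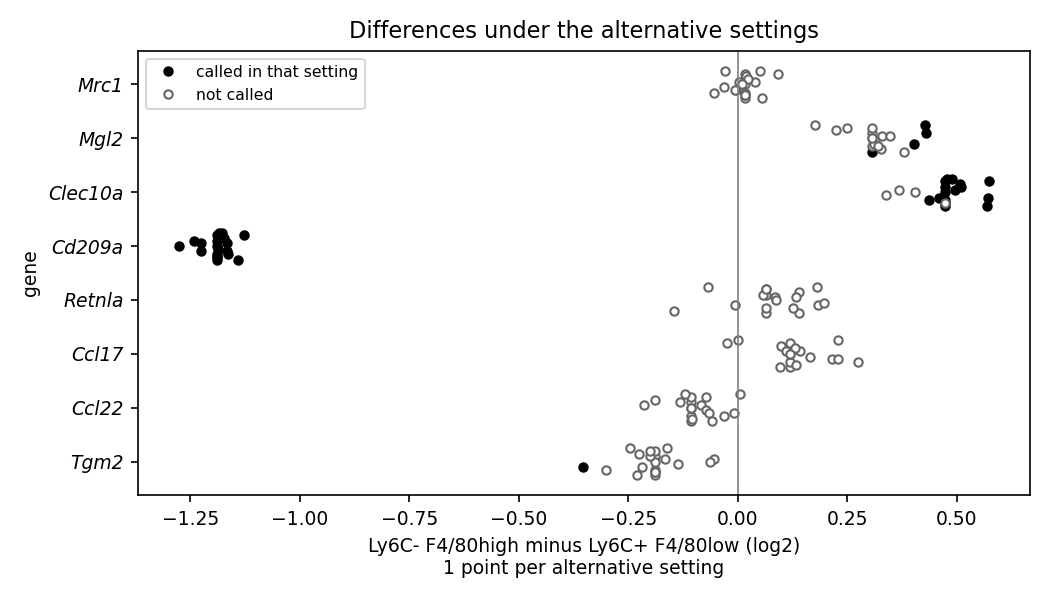
Difference between the subsets (x axis, log2) for each marker (y axis) under each alternative setting, 1 point per setting, filled where the difference was called. All 20 points of Cd209a are filled and lie between -1.28 and -1.13, 16 of 20 are filled for Clec10a, 4 of 19 for Mgl2 and 1 of 20 for Tgm2.

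The 27 relatives and partners of the markers gave 8 lower genes, 1 higher and 18 without a call, around a median of -0.16. Their shares of 29.6% lower and 3.7% higher stand beside 14.3% and 19.5% of all genes. The list had 17 genes under background on all arrays, among them the higher one, Cd209f, and the lower Dpp4, whose product trims chemokines, and Cd209d. The lower count was 5 after quantile normalization or cyclic loess, and also 5 without the mouse 1 array of the Ly6C- F4/80high cells, the Ly6C+ F4/80low array of mouse 1 or that of mouse 3. It was 5 without mouse 1, 3 without mouse 3, and 2 without the 50% of genes of lowest level. Cd209f was not called without mouse 2 (adjusted p = 0.0645) or mouse 3 (adjusted p = 0.0942).

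The receptors and signalling genes of interleukin-4 and interleukin-13 were for the most part expressed in both subsets, with 10 of 13 measured genes above background on all arrays. The Ly6C- F4/80high cells had 5 lower, 0 higher and 8 without a call, and the median was -0.19. The lower share of 38.5% stands beside 14.3% of all genes, of which 19.5% were higher. Cish, a feedback inhibitor induced through STAT5, was lower by 1.36 (SE 0.10, limma adjusted p = 7.3e-06), Il13ra1, the second chain of the receptor shared by both cytokines, by 0.99 (SE 0.08, limma adjusted p = 1.07e-05) and the kinase gene Jak2 by 0.70 (SE 0.08, limma adjusted p = 0.000133). Il4ra and Stat6, the core of the pathway, are named after their values were seen. Il4ra averaged 10.31 ± 0.02 (SD, n = 3) and 10.60 ± 0.155 (SD, n = 3), a difference of -0.29 (SE 0.09, limma adjusted p = 0.0335). That call was lost without any of the 3 Ly6C- F4/80high arrays (adjusted p = 0.0882, 0.0570 and 0.0851) or the Ly6C+ F4/80low arrays of mouse 2 (adjusted p = 0.0823) or mouse 3 (adjusted p = 0.116), without mouse 2 or mouse 3 (adjusted p = 0.113 and 0.216), and with a common median (adjusted p = 0.0509). Stat6 averaged 9.77 and 9.95 and differed by -0.17 (SE 0.07, limma adjusted p = 0.0878). Quantile normalization brought it past the threshold (-0.23, adjusted p = 0.0262), as did cyclic loess (-0.26, adjusted p = 0.0152). So did leaving out the 50% of genes of lowest level (adjusted p = 0.0369) and a trended robust prior (adjusted p = 0.0349). The cytokine gene Il4 was under background on all arrays. Il13 was above it on 2 Ly6C- F4/80high and 3 Ly6C+ F4/80low arrays and differed by -0.22 (SE 0.12, limma adjusted p = 0.190). The count of lower genes was 3 without the mouse 1 or mouse 3 array of the Ly6C- F4/80high cells or the Ly6C+ F4/80low array of mouse 3, and without mouse 3.

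Other genes that interleukin-4 induces in macrophages were divided. The 27 measured genes split into 8 higher, 13 lower and 6 uncalled around a median of -0.17, with 5 higher without mouse 1 or without mouse 2. Their shares of 29.6% higher and 48.1% lower stand beside 19.5% and 14.3% of all genes. Chil4 and Pdcd1lg2, counted as lower, were under background on all arrays. Without the 50% of genes of lowest level, 6 were higher and 10 lower. Arg1, the arginase gene that gives alternative activation its best known enzyme, stood at 9.32, 9.42 and 9.73 in the Ly6C- F4/80high arrays and at 7.32, 8.32 and 8.73 in the Ly6C+ F4/80low arrays. The subsets did not overlap, and the Ly6C+ F4/80low arrays differed widely from each other. Arg1 was higher by 1.36 (SE 0.29, limma adjusted p = 0.00462), with an adjusted p of 0.0507 under a trended robust prior. Trem2, a lipid-sensing receptor of macrophages, was higher by 1.63 (SE 0.11, limma adjusted p = 4.18e-06) and the fatty acid receptor gene Cd36 by 1.57 (SE 0.08).

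In the other direction Il1r2, the decoy receptor for interleukin-1, was lower by 2.33 (SE 0.09, limma adjusted p = 2.09e-07), the glucan receptor gene Clec7a by 1.51 (SE 0.09) and the eosinophil chemokine gene Ccl24 by 1.33 (SE 0.11, limma adjusted p = 1.78e-05). Chil3, which encodes the chitinase-like protein Ym1 and is often used beside Arg1 and Retnla, is named after its values were seen. It stood at 7.66, 8.05 and 7.92 in the Ly6C- F4/80high arrays and at 9.0, 8.64 and 8.62 in the Ly6C+ F4/80low arrays, without overlap. It was lower by 0.87 (SE 0.13, limma adjusted p = 0.00054), opposite in sign to Arg1.

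**Figure D4:**
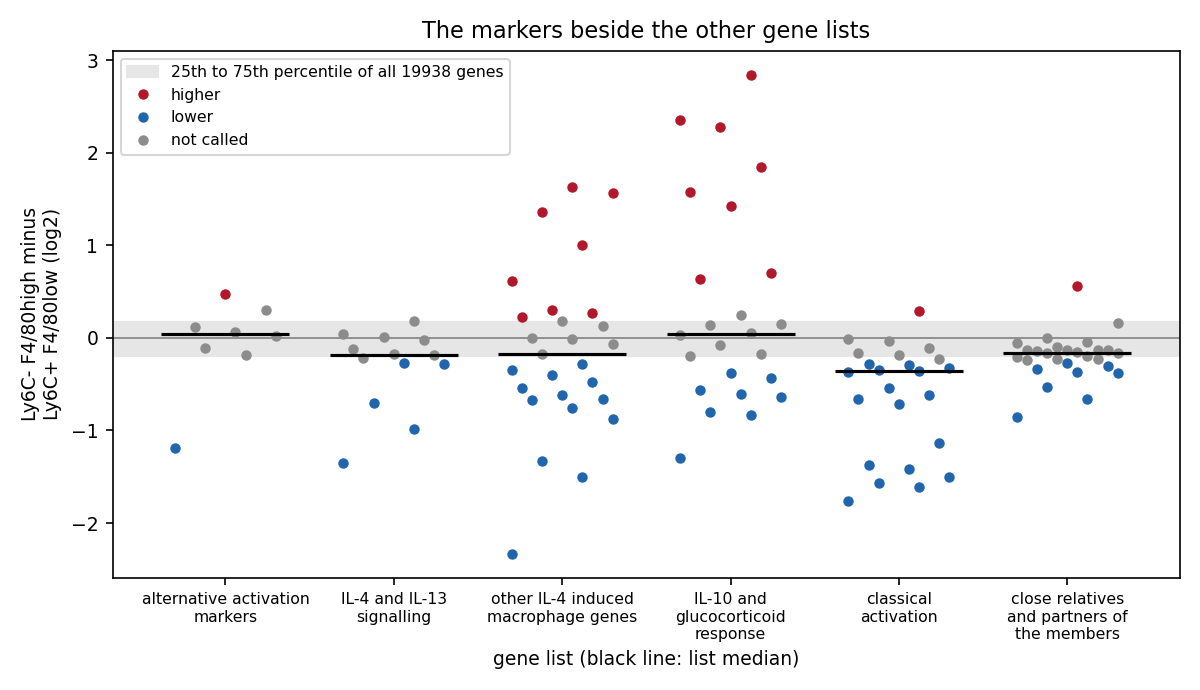
Difference between the subsets (y axis, log2) of each measured gene of 6 lists (x axis), coloured by call, with a black line at each list's median and a grey band from the 25th to the 75th percentile of all genes. Most of the 8 markers lie in or near the band, while the other interleukin-4 induced genes spread from -2.33 to 1.63.

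Genes of other activation states are given for comparison. The interleukin-10 and glucocorticoid response, with 24 genes, had 8 higher, 8 lower and 8 uncalled around a median of 0.04. That is 33.3% in each direction, beside 19.5% higher and 14.3% lower of all genes. The even split holds for the pooled list only. Listed after their values were seen, the 8 lower genes were Il10, its receptor gene Il10ra, Stat3, Socs3, Bcl3, Nfil3, Etv3 and Sbno2. The 8 higher genes were Cd163, Stab1, Mertk, Tsc22d3, Lyve1, Folr2, Cd5l and Gas6. The second receptor gene, Il10rb, was not called. The higher ones were led by Cd5l, a secreted scavenger protein that was not above background on any Ly6C+ F4/80low array and in the other subset at least 3.77-fold higher, the bridging protein gene Gas6 at 2.36 and the folate receptor gene Folr2 at 2.28. The lower ones were led by the transcriptional repressor gene Nfil3 at -1.30 (SE 0.12, limma adjusted p = 2.49e-05), the NF-kB cofactor gene Bcl3 at -0.83 (SE 0.08) and the receptor gene Il10ra at -0.80 (SE 0.09).

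Among 24 classical activation genes 17 were lower, 1 higher and 6 uncalled, and the median was -0.36. The shares were 70.8% lower and 4.17% higher, beside 14.3% and 19.5% of all genes. Il12a and Il23a, counted as lower, were under background on all arrays. Without the 50% of genes of lowest level, 12 were lower. Il6 was not above background on any Ly6C- F4/80high array and at least 1.71-fold lower there, Il1b differed by -1.61 and the co-stimulatory gene Cd86 by -1.57. The higher one was Irf8, a myeloid lineage factor, at 0.29 (limma adjusted p = 0.0284). Its call was lost after cyclic loess (0.16, adjusted p = 0.198) or quantile normalization (0.18, adjusted p = 0.150), and without the Ly6C- F4/80high arrays of mouse 1 (adjusted p = 0.0936) or mouse 3 (adjusted p = 0.105) or the Ly6C+ F4/80low arrays of mouse 2 (adjusted p = 0.0790) or mouse 3 (adjusted p = 0.0663), and without mouse 1 or mouse 3 as a whole (adjusted p = 0.127 and 0.184). The lower count was 11 without mouse 3. Differences between these lists were not tested.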

How the data were processed

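The authors deposited log2 values from RMA, per the submitters' processing notes. RMA corrects background, quantile normalizes the arrays and summarises each probe set. Its software and the array model are not given in the material used here. The log2 scale was read from the values. RMA compresses low signals, and the number of arrays, not a read depth, limits precision. Probe sets were named from the platform annotation: of 35556, 21789 had 1 symbol, 1621 several and 12146 none. For 21698 the Entrez identifier matched RefSeq (GRCm38.p6), with 0 symbols changed. Each symbol was read by its probe set of highest mean over the 6 arrays.

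Differences were tested, two-sided, with limma 3.58.1 in R 4.3.3 (lmFit, eBayes, no filter) over 19938 genes with Benjamini-Hochberg adjustment, and the procedure was tested on simulated data. Where all 3 arrays of a subset were under background and the other subset's mean was above it, folds are bounds against 5.48.

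By the labels each mouse gave both subsets, so the mouse numbers pair the arrays. Deviations of paired arrays from their subset means correlated at 0.03, -0.08 and 0.09, and the consensus correlation was -0.01. As a paired test is stated nowhere, arrays were compared without a block, and the block was an alternative.

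The markers and gene lists were chosen with earlier results of these data known. Named are all markers, up to 3 called genes per direction and list, genomic neighbours and partners of the markers, the sorting genes and the 3 genes nearest in pattern. Genes without a probe set of their own, such as Il2rg, Jak3 and Ptgs1, were not analysed here.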

Additional observations from a re-analysis of the deposited data

How the results depend on the processing

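The alternatives were the mouse as a replicate block or a random effect, quantile normalization, cyclic loess, a common median, filters on level, averaging the probe sets of a gene, adjustment over all probe sets, a prior that was trended and robust, weighting of arrays, and the removal of arrays and mice. Of 155 marker values under them, 135 kept their direction and side of the threshold, and the causes of the others were not tested. The mean of probe sets changed nothing for the markers, which have 1 each.

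The count of markers called higher was 2 in place of 1 with the replicate block, after quantile normalization and after cyclic loess, each adding Mgl2, and ranged from 0 to 2 when arrays or mice were left out. Markers called lower ranged from 1 to 2. The block also ended the calls of Socs1 (adjusted p = 0.0766), Cd209e (adjusted p = 0.0501) and Siglecf (adjusted p = 0.0553), and changed no other call of the markers and the named genes that were refitted with it. Sign changes, all of differences that were not called, were those of Mrc1 after quantile normalization (-0.003) and cyclic loess (-0.029) and in the range without arrays or mice (-0.0543 to 0.092), of Retnla (-0.1447 to 0.1965) and Ccl17 (-0.0239 to 0.2741) in the same range, and of Ccl22 after cyclic loess (0.0049).

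Left-out arrays and mice gave 2677 to 3597 genes called higher, against 3887, and 1321 to 3290 lower, against 2861, the fewest without mouse 3 in both. The same ranges were 0 to 0 higher and 3 to 4 lower for interleukin-4 and interleukin-13 signalling, 5 to 7 and 11 to 13 for the other interleukin-4 induced genes, 8 to 10 and 8 to 9 for the interleukin-10 list, 0 to 1 and 11 to 17 for classical activation, and 0 to 1 and 3 to 10 for the relatives. The signalling list had 1 higher gene without the 50% of genes of lowest level and under the trended robust prior. The classical list had 0 higher genes after quantile normalization and cyclic loess. The relatives had 0 higher genes without the lowest 25% or 50%, and 5 lower after quantile normalization, after cyclic loess and without the lowest 25%, and 2 without the lowest 50%. With the 99th percentile as background 2 markers, Mrc1 and Tgm2, were above it on all arrays, against 4 with the 95th and 6 with the 90th.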

Other observations

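The SD of the markers within a subset ran from 0.06 to 0.37, with a median of 0.15 beside 0.10 over all genes, a difference that was not tested. The Ly6C- F4/80high array of mouse 1 was the highest of its subset for 5 of the 8 markers, and the Ly6C+ F4/80low array of mouse 3 was the lowest of its subset for 5. Among genomic neighbours, chosen after their values were seen, Slc16a13, near Clec10a, was higher by 0.51 (SE 0.08), and Dzip3, on the far side of Retnlg from Retnla, was higher by 1.24 (SE 0.10) beside resistin-family genes under background. Slc39a12, directly beside Mrc1, was higher by 0.60 (SE 0.12, limma adjusted p = 0.00394). Neighbours also called were Stam, Coq9 and Tti1, higher, and Pllp, Asgr2, Cd209d and Cd209e, lower. Of all genes 19.5% were called higher and 14.3% lower.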
